A study of Mus musculus with 6 samples.

Results

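The genes described here are the mouse zinc finger genes whose symbols run from Zfp900 to Zfp999. They were chosen by symbol, as every row of the deposited count table whose gene symbol is Zfp followed by a number in that range. The table holds 33 such genes among 24421, with symbols from Zfp930 to Zfp964, and 304 further genes named Zfp with another number. The nearest symbol outside the range is Zfp882, and the table holds no Zfp number beyond the range. No measured value entered that rule, but the run was selected on an earlier view of Zfp946, whose log2 fold change lay near the lower end of the comparison of treated with untreated mice. The RUX difference of Zfp946 is therefore given as a description, with no test.

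The cells were bone marrow cells sorted as lineage-negative and CD117-positive, a gate that enriches haematopoietic stem and progenitor cells, from female CByB6F1 mice aged 2 to 5 months. CByB6F1 is the first-generation cross of BALB/cBy and C57BL/6 mice. Cells of 2 to 3 mice were combined into each pool, with 3 pools from untreated mice (pools 1 to 3) and 3 pools from mice given ruxolitinib, labelled RUX (pools 4 to 6). Ruxolitinib inhibits the kinases JAK1 and JAK2, and the labels state neither its dose nor its duration. The labels name no transgene or tumour, and the question was how the drug alters the transcriptome of normal progenitor cells. Because cells were measured in bulk, fewer cells of a type and less RNA per cell cannot be told apart.

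Most genes of this run encode KRAB zinc finger proteins, a family that expanded in mammals by repeated local duplication. Their arrays of C2H2 fingers bind DNA, and their KRAB domain recruits the corepressor TRIM28, which brings the histone methyltransferase SETDB1 and heterochromatin protein 1 to the bound site. Many of them silence endogenous retroviruses and other transposable elements. Zfp932, with its close relative Gm15446, is known for repressing endogenous retroviruses in mouse embryonic stem cells. For most of the others no target or function is stated here.

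The coding sequences fit that description for all but a few genes. A protein-coding transcript was found for 32 of the 33 genes, Zfp939 being the exception. Scanning the longest reading frame for the C2H2 finger spacing gave a median of 11 fingers per gene, from 0 in Zfp957 to 18 in Zfp945. A KRAB core pattern was matched in 28 of the 32, or 87.5%, against 109 of 299 other numbered Zfp genes, or 36.5%. The 4 genes without a match were Zfp935, Zfp953, Zfp956 and Zfp957. A pattern match describes the reading frame only, and a diverged or truncated KRAB domain would be missed.

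The genes lie in groups along the chromosomes. Of the 33, 26 had another numbered Zfp gene within 1 Mb and 16 had at least 5. Chromosome 17 held 10 of them, chromosomes 7 and 8 held 5 each, chromosome 13 held 3, chromosomes 2 and 5 held 2 each, and chromosomes 4, 6, 9, 10, 14 and 19 held 1 each. A block on chromosome 17 (mm10, positions 21567046 to 22867134, 1300.1 kb) carried 7 of them in the order Zfp948, Zfp942, Zfp943, Zfp947, Zfp944, Zfp946 and Zfp945. Within it, Zfp942 (21926963 to 21962464, minus strand) and Zfp943 (21962559 to 21994366, plus strand) stand head to head, their 5′ ends 95 bases apart. Zfp944 (22337989 to 22361400, minus strand) stands 53 bases from Zfp758 in the same way. Zfp946 spans 22424268 to 22456689 on the plus strand, and Zfp947 spans 22144359 to 22165977 on the minus strand.

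The DNA just upstream of the block's genes is shown because it contains a recurring hexamer, CACGTG (the palindromic E-box), in 5 of the genes. The sequence upstream of Zfp946 is given first, as the gene whose earlier-seen difference led to the run. These are the 250 bases before its RefSeq start (GRCm38.p6, chr17:22423952-22424201, plus strand), with the hexamer in capitals:
Zfp946: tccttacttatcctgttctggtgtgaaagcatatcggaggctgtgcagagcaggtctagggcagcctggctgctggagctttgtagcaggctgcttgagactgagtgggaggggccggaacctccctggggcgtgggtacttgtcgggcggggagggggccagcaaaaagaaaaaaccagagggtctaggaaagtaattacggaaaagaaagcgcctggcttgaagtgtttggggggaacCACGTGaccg

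To compare the genes with each other, 30-base windows centred on the hexamer are given below, each on its own gene's strand and from RefSeq, build GRCm38.p6, with CACGTG in capitals. They come from chr17:22424180-22424209 for Zfp946, chr17:22166031-22166060 for Zfp947, chr17:21962501-21962530 for Zfp942, chr17:22361412-22361441 for Zfp944 and chr4:147848511-147848540 for Zfp933.
Zfp946: tttggggggaacCACGTGaccggaaccggg
Zfp947: attttgggaaacCACGTGaccataaccacg
Zfp942: cgttagcgctgtCACGTGaccggaaccgtg
Zfp944: cgttagcgctgtCACGTGaccggaaccgtg
Zfp933: aacggcctcagtCACGTGttacagcggttt

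Read on each gene's strand, the hexamer began 10 bases upstream of the RefSeq start of Zfp946, 71 upstream of Zfp947, 54 upstream of Zfp942, 29 upstream of Zfp944 and 110 upstream of Zfp933. The fifth gene of chromosome 17, Zfp943, shares the site of Zfp942 read from the other strand, beginning 46 bases from its own start, so the 5 genes there hold 4 distinct sites. The windows of Zfp942 and Zfp944 were identical at 30 of 30 bases, and their upstream sequences shared a run of 157 bases. That run reaches into the neighbouring genes Zfp943 and Zfp758. Their exons begin after 94 bases upstream of Zfp942 and 52 bases upstream of Zfp944. The windows of Zfp946 and Zfp947 were identical at 22 of 30 bases, and that of Zfp933 matched Zfp946 at 9 of 30.

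Upstream sequence of 250 bases was matched by symbol for 30 of the 33 genes, 277 other numbered Zfp genes and 27025 genes in all. For the 30, the start nearest the deposited 5′ end was taken, and for the comparison sets the first listed start. The shares below are thus from starts chosen by unlike rules. CACGTG, which reads the same on both strands, occurred in 6 of the 30, or 20%, against 5.78% of the other Zfp genes and 6.05% of all genes. This hexamer was searched for after the sequences had been read. CCAAT, on either strand, was in 20 of 30 (66.7%), against 48% and 34.5%. TTCNNNGAA, the palindrome that STAT factors downstream of JAK kinases recognise, was in 2 of 30 (6.67%), against 16.6% of the other Zfp genes and 7.18% of all. CCGGAAG, an ETS-type motif, was in 5 of 30 (16.7%), against 18.1% and 7.05%, and TATAAA in 0 of 30, against 6.14% and 13%. No overlap between different motifs was removed, and neighbouring duplicates are not independent cases.

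Total counts were 27354768 to 48747137 read pairs per pool, lowest in untreated pool 1, and 3 counts were worth 0.0595 to 0.107 CPM (read pairs scaled to a common library size). The genes of the run took 0.0349 to 0.0525% of the counts of a pool. Of the 33, 30 had enough counts to be tested. Of the other 3, Zfp960 held 3 to 10 counts in each pool, Zfp936 held 1 count in untreated pool 3 and 1 in RUX pool 4, and Zfp957 held 1 count in RUX pool 5. The last 2 genes were thus at or below the 3-count floor everywhere, and no level or fold is given for them.

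Levels were compared between genes as TPM, the length-corrected transcript share, which divides counts by exon length. Zfp932 had the highest level, 22.6 ± 4.50 TPM (SD over 6 pools), followed by Zfp961 at 21.7 ± 3.99 and Zfp954 at 20.2 ± 3.07. These 3 levels lay within each other's spread. Next came Zfp958 at 18.1 ± 5.61, Zfp944 at 15.5 ± 2.44, Zfp959 at 15.4 ± 1.88, Zfp930 at 14.9 ± 3.53 and Zfp942 at 13.8 ± 3.85, again each within the spread of its neighbours. Zfp943 at 9.75 ± 3.26 and Zfp956 at 9.69 ± 0.571 closed the upper 10. Zfp946 stood lower, at 7.76 ± 2.87 TPM, and the lowest tested gene, Zfp964, at 0.353 ± 0.260.

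These are modest levels. The median over the 33 genes was 5.26 TPM, close to the 5.19 TPM of the other numbered Zfp genes. Among tested genes the medians were 6.48 TPM in the run, 5.78 TPM in the other Zfp genes and 13.5 TPM in all genes. Zfp932, the highest, stood at the 77.9th percentile of all genes in the table.

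**Figure D1:**
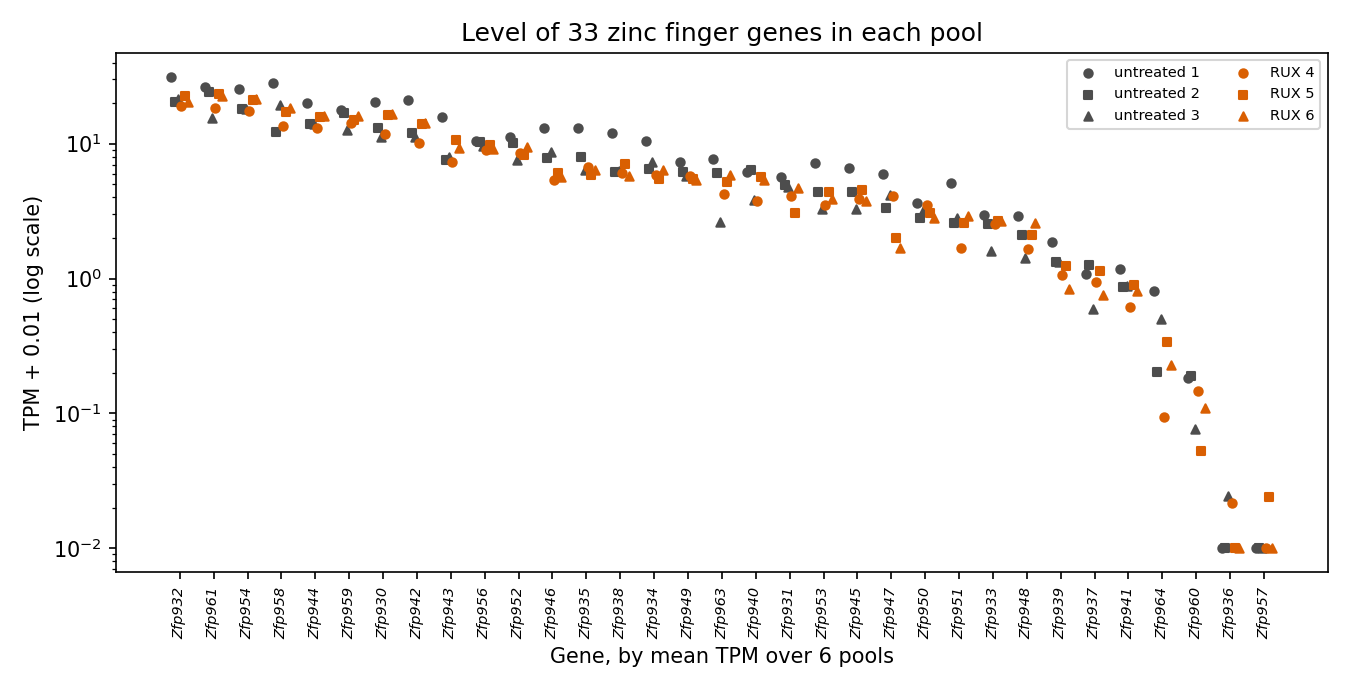
Level of each of the 33 genes in the 6 pools, as TPM + 0.01 on a log axis, with 1 symbol per pool and genes ordered by mean level. Zfp932 leads at a mean of 22.6 TPM, the tested genes reach down to 0.353 TPM for Zfp964, and Zfp960, Zfp936 and Zfp957 lie below them.

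Some levels carry uncertainty from near-identical copies. The share of a gene's exonic 50-base words that also occur in another gene was under 10% for 22 of the 33 and 20% or more for 7. It was 82.7% for Zfp960, 37% for Zfp932 (mostly Gm15446), 29.5% for Zfp934, 29.4% for Zfp937, 23.3% for Zfp931, 20.9% for Zfp935 and 20% for Zfp947. Pairs of reads that fit several places would have been left out by the counting tool's defaults, so the levels of these 7 may be too low. For Zfp946 the share was 1.75%. Zfp956 shares exon bases with its neighbour Zfp783 on the same strand, the single case of shared exon bases with another gene of the table.

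Over the pools, the one that stood apart was untreated pool 1. Summed over all 33 genes, the level was 513 CPM in untreated pool 1, 353 in untreated pool 2 and 370 in untreated pool 3. In the RUX pools the sums were 372, 368 and 351 CPM. Untreated pool 1 alone was high, and the other 2 untreated pools lay at the values of the RUX pools. The group means were 412 ± 87.9 CPM untreated and 364 ± 11.6 CPM with RUX (SD, n = 3 pools each), a difference smaller than the untreated spread.

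Gene by gene, untreated pool 1 held the highest value of 25 of the 30 tested genes (83.3%) and the lowest of 0. The 5 exceptions were Zfp956, Zfp933, Zfp940, Zfp937 and Zfp950. Among the other numbered Zfp genes the same pool was highest for 123 of 275 (44.7%), and among all tested genes for 2671 of 13411 (19.9%). The ratio of untreated pool 1 to the mean of the other 5 pools was above 1 for all 30 tested genes, with a median of 1.43 and a range from 1.03 for Zfp956 to 2.89 for Zfp964. The median ratio was 1.15 for the other Zfp genes and 0.995 for all genes. These figures describe 1 pool, with no test, and the pool was singled out after its values were seen.

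The size of the pool 1 excess differed between genes. After Zfp964, whose counts were low, it was 1.94-fold for Zfp951, 1.86-fold for Zfp935, 1.82-fold for Zfp946, 1.80-fold for Zfp938, 1.79-fold for Zfp947 and 1.77-fold for Zfp943. Among the genes with the highest levels it was 1.65-fold for Zfp958, 1.43-fold for Zfp932, 1.20-fold for Zfp961 and 1.13-fold for Zfp959. The excess covered weakly and more strongly expressed genes and the genes of several chromosomes.

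**Figure D2:**
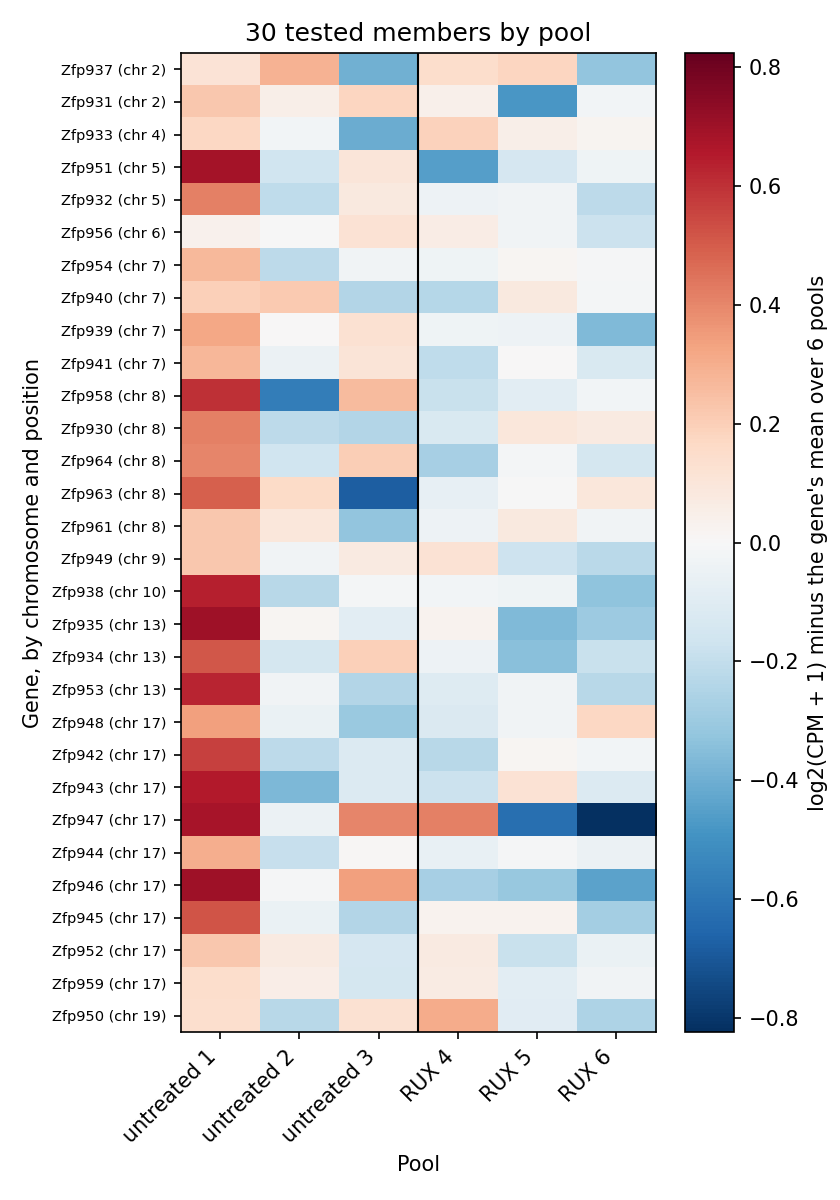
Value of each of the 30 tested genes in each pool as log2(CPM + 1) minus the gene's mean over the 6 pools, red above and blue below the mean, with genes ordered by chromosome and position and a black line between untreated and RUX pools. The column of untreated pool 1 is red for nearly every gene, and 25 of the 30 are highest there.

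Other properties of the pools went with this and were not tested as its source. Untreated pool 1 had the fewest counts. Summed neutrophil markers, found for 11 of 12 symbols, were 174 CPM in untreated pool 1, 2304 and 2520 in the other untreated pools, and 373 to 1575 in the RUX pools, and 9 of the 11 were lowest in untreated pool 1. Summed progenitor markers were 2322, 2270 and 1649 CPM in untreated pools 1 to 3 and 1970 to 2219 with RUX, with Kit, the sorted antigen CD117, at 409, 471 and 196 CPM and 295 to 416 CPM. Summed monocyte markers were 1012 to 1972 CPM untreated and 847 to 1357 CPM with RUX, erythroid markers 6063 to 7078 and 5662 to 8419 CPM, and eosinophil markers 50.6 to 250 and 60.2 to 242 CPM. B cell markers summed to 362 to 406 CPM untreated and 266 to 399 CPM with RUX, and T and NK cell markers to 235 to 400 and 246 to 440 CPM. The T cell gene Cd3e stayed at 0.10 to 0.54 CPM, and Cd8a held 0 counts in untreated pool 2 and in the 3 RUX pools. These are 2 of the 10 T and NK genes, and the others carried nearly all of the list's sum in the RUX pools. Of the 8 tested, 4 had positive and 4 negative log2 fold changes, and 0 were called. The RUX pools lay wholly below in 2 of the 8, against 3.25% of all genes.

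Pools also differed in which gene lengths were high. When the tested genes were ranked by exon length and cut into 4 equal groups, of the group with the shortest exons, 34.3% were highest in untreated pool 3 and 35.0% in RUX pool 4, against 12.2% in untreated pool 1. In the next 3 groups, untreated pool 1 was highest for 23.5, 25.9 and 18.1%. The share was 83.3% in the run and 44.7% in the other numbered Zfp genes. Whether gene length plays a part was not tested. Without untreated pool 3 and RUX pool 4 together, 31 genes of the run were tested. All 31 had lower fitted values with RUX, with a median log2 fold change of -0.28. The share of negative values was then 65.1% in the other numbered Zfp genes and 51.2% in all genes. This pair was chosen after the data were seen. Untreated pool 1, the high pool, stays in this setting, so the signs are no separate result.

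**Figure D3:**
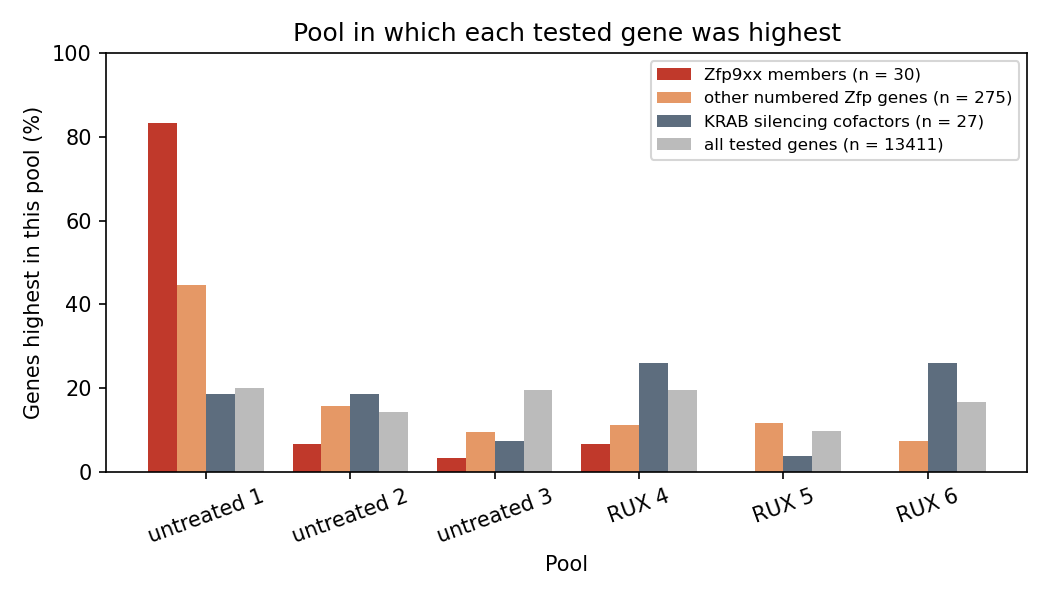
Percentage of tested genes whose highest CPM fell in each pool, for the run (30 genes), the other numbered Zfp genes (275), the KRAB silencing cofactors (27) and all tested genes (13411). Untreated pool 1 holds 83.3% of the run, 44.7% of the other Zfp genes, 18.5% of the cofactors and 19.9% of all genes.

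For RUX against untreated, edgeR's quasi-likelihood test over 13411 genes called 0 of the 30 at a Benjamini-Hochberg adjusted p under 0.05, where the background was 0% of all genes. At an unadjusted p under 0.05, 0 of the 29 genes other than Zfp946 passed with edgeR, and DESeq2 and limma-voom each gave 1, with 0 after adjustment. Of all genes, 1.89% passed that threshold, 1.04% with lower and 0.85% with higher values. Zfp946 is not counted here, since its place in this comparison led to the run. Adjusted p was 1.00 for each other tested gene named below.

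The fitted differences were small and mostly of 1 sign. Of the 30, 28 (93.3%) had a negative log2 fold change, that is a lower fitted level with RUX, against 61.8% of the other numbered Zfp genes and 50.8% of all genes. The other 2 were positive, against 49.2% of all genes. Apart from Zfp946, 27 of 29 (93.1%) were negative. The median log2 fold change was -0.19, against -0.07 for the other Zfp genes and -0.004 for all genes. Values ran from -1.23 for Zfp964 to 0.19 for Zfp933, and 26 of the 30 were smaller than 0.5 in size. The median standard error was 0.22, larger than the median difference. For 23 of the 30 (76.7%) the 95% interval lay within a 2-fold change in either direction, against 80.9% of all genes.

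The signs went with untreated pool 1. Without that pool, 31 genes were tested, 15 with a positive and 16 with a negative log2 fold change (51.6% negative), and the median was -0.0070. The other Zfp genes then had 48.4% negative values and all genes 50.5%. Of the 30 genes tested with all pools, 29 had a higher log2 fold change without untreated pool 1 (the exception was Zfp956). That rise was fixed by leaving out a pool chosen for its high values, and it is no separate result. Without that pool, 24 of the 30 were within 0.3 of 0.

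**Figure D4:**
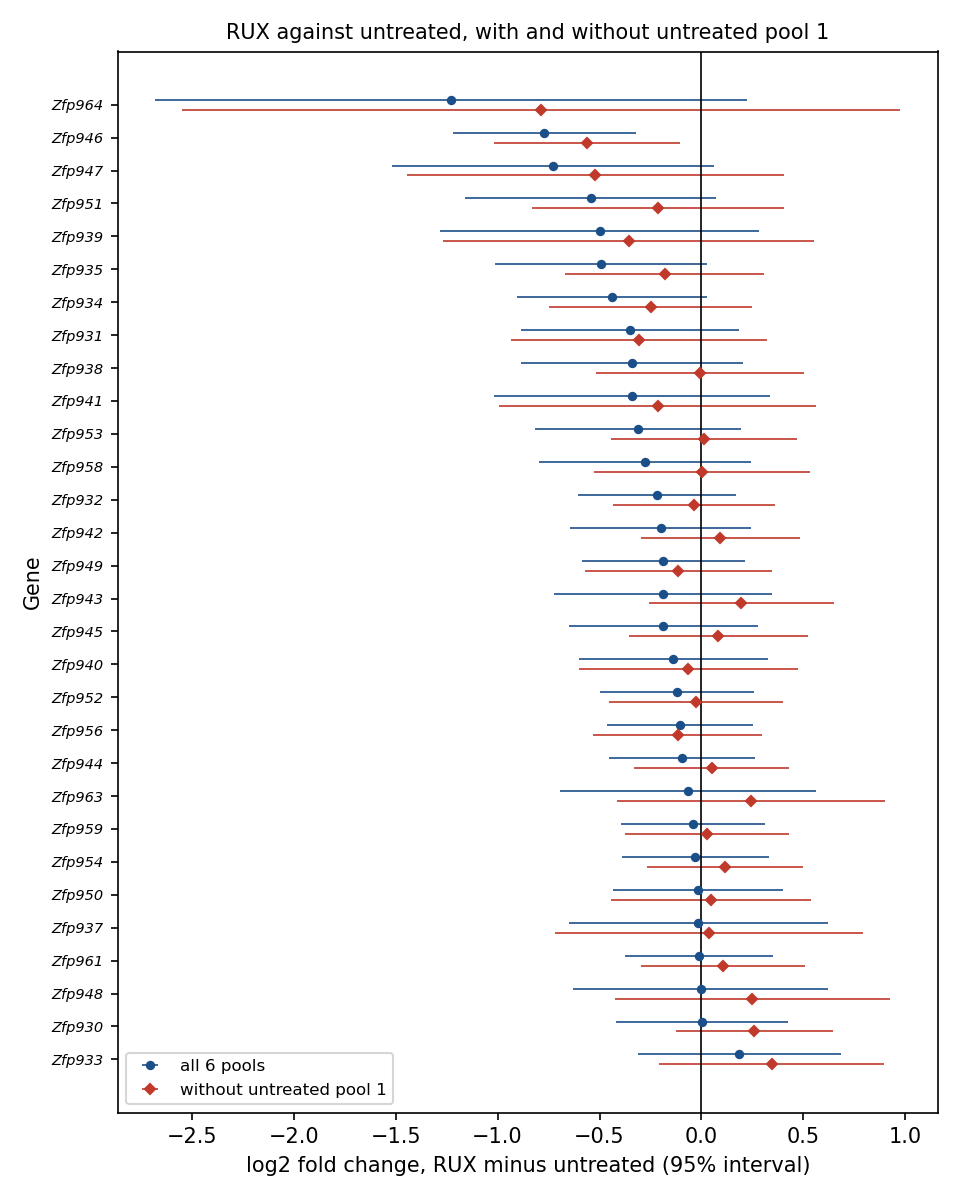
Log2 fold change (RUX minus untreated) of each tested gene with its 95% interval, with all 6 pools and without untreated pool 1. With all pools 28 of 30 values lie below 0, and without untreated pool 1 the values spread on both sides of 0 with Zfp946 at -0.56.

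In 3 genes the RUX pools lay wholly below the untreated pools: Zfp946, Zfp931 and Zfp939. Leaving out untreated pool 1 could not undo such a separation, and it added no further gene. Apart from Zfp946, whose difference led to the run, that is 2 of 29 tested genes (6.90%), against 3.25% of all genes with all pools and 5.88% without untreated pool 1, and nothing is read from so small a count. With all pools 0 genes lay wholly above, against 2.99% of all genes. Without untreated pool 1 there were 2, Zfp933 and Zfp930, against 5.57% of all genes.

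Zfp946, a KRAB gene with 11 matched fingers in the chromosome 17 block, was at 20.3, 12 and 15.6 CPM in untreated pools 1 to 3 and at 9.84, 9.55 and 8.66 CPM in RUX pools 4 to 6. Its lowest untreated pool was above its highest RUX pool, and the RUX pools were close together. The means were 16 ± 4.16 and 9.35 ± 0.614 CPM (SD, n = 3 each), a fitted fold of 0.586 (log2 fold change -0.77 ± 0.21, SE). Without untreated pool 1 the log2 fold change was -0.56 ± 0.21, and over the 14 alternatives it ran from -0.93 to -0.56. Since an earlier view of this difference led to the run, the values describe the gene and carry no test.

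Zfp931, on chromosome 2 (178066878 to 178078425, minus strand), was at 5.36, 4.63 and 5.16 CPM untreated and 4.61, 2.91 and 4.36 CPM with RUX. The gap between the groups was narrow, since untreated pool 2 and RUX pool 4 nearly met. Its log2 fold change was -0.35 ± 0.25. Zfp939, on chromosome 7 (39449518 to 39477416, plus strand), was low throughout, at 1.96, 1.38 and 1.59 CPM untreated and 1.32, 1.31 and 0.853 CPM with RUX. It rested on 43 to 64 counts per pool, and its log2 fold change of -0.50 ± 0.36 was -0.32 without RUX pool 6.

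Other genes had larger fitted differences with groups that overlapped. Zfp947, a neighbour of Zfp946 with 9 matched fingers, was at 8.46, 4.71 and 6.81 CPM untreated and at 6.88, 2.85 and 2.34 CPM with RUX. RUX pool 4 lay among the untreated values and the other 2 RUX pools below them. The log2 fold change was -0.73 ± 0.37. Over the 14 alternatives it ran from -1.35 without RUX pool 4 to -0.45 without RUX pool 6.

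Zfp964 had the most negative value, -1.23 ± 0.67, on 21, 7 and 19 counts untreated and 4, 15 and 10 counts with RUX. The 95% interval from -2.68 to 0.23 shows how little these counts fix it. Zfp951, on chromosome 5 (104813168 to 104860068, minus strand), was at 7.96, 3.97 and 4.97 CPM untreated and 3.06, 4.06 and 4.42 CPM with RUX. Its log2 fold change of -0.54 ± 0.29 was -0.21 without untreated pool 1, the high pool.

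On chromosome 13, Zfp935 (62453016 to 62466812, minus strand) was at 17.4, 10.4 and 9.61 CPM untreated and 10.5, 7.79 and 8.19 CPM with RUX. Zfp934 (62516797 to 62558599, minus strand) was at 13.7, 8.37 and 10.9 CPM untreated and 9.06, 7.13 and 8.11 CPM with RUX. In both, untreated pool 1 was high and the remaining pools overlapped. Their log2 fold changes were -0.49 ± 0.24 and -0.44 ± 0.22, and -0.18 and -0.25 without untreated pool 1.

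The genes with the highest levels showed little difference between the groups. Zfp932, the retrovirus repressor on chromosome 5 (109996527 to 110010411, plus strand), was at 35.0, 22.3 and 27.5 CPM untreated and 25.1, 25.4 and 22.2 CPM with RUX (log2 fold change -0.22 ± 0.18). Zfp961 was at 38.2, 34.8 and 25.8 CPM untreated and 31.6, 34.5 and 31.8 CPM with RUX (-0.01 ± 0.17). In Zfp961 the RUX values fell inside the untreated range, and its 95% interval of the fold ran from 0.771 to 1.28. Zfp954 was at 27.8, 19.6 and 22.5 CPM untreated and 22.4, 23.2 and 22.8 CPM with RUX (-0.03 ± 0.17), again inside the untreated range.

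Zfp958 was the least even of the high genes among untreated pools, at 35.5, 15.2 and 27.8 CPM, with 20.2, 21.7 and 22.8 CPM in RUX pools. Its log2 fold change was -0.28 ± 0.24. It was -0.55 without untreated pool 2, the lowest, and 0.002 without untreated pool 1, the highest. Zfp959 was at 19.6, 18.4 and 15.9 CPM untreated and 18.6, 16.6 and 17.3 CPM with RUX (-0.04 ± 0.16). Zfp956, 1 of the 4 without a KRAB match, was at 15.4, 15.0 and 16.4 CPM untreated and 15.7, 14.6 and 13.1 CPM with RUX (-0.11 ± 0.17). For these genes the groups overlapped.

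Only 2 tested genes had a positive value with all pools. Zfp933, on chromosome 4 (147822986 to 147848375, minus strand), was at 6.68, 5.71 and 4.15 CPM untreated and 6.79, 6.07 and 5.93 CPM with RUX, a log2 fold change of 0.19 ± 0.23. Untreated pool 1 was inside the RUX range and the other 2 untreated pools below it. Without untreated pool 3 and RUX pool 4 the value was -0.04. Zfp930, on chromosome 8, was at 32.9, 20.9 and 20.5 CPM untreated and 22.3, 26.1 and 25.8 CPM with RUX, with equal group means of 24.8 CPM. Leaving out its high untreated pool 1 gave a log2 fold change of 0.26.

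By chromosome, the excess of untreated pool 1 recurred in each of the larger groups. The 10 genes of chromosome 17 summed to 184, 123 and 128 CPM untreated and 127, 126 and 120 CPM with RUX. All 9 tested had negative values, against 50.8% of all genes, with a median log2 fold change of -0.19. The 9 include Zfp946, whose difference led to the run. The 3 genes of chromosome 13 summed to 48.9, 29.7 and 29.8 CPM untreated and 29.9, 25.8 and 25.6 CPM with RUX, with a median of -0.44, the most negative of the chromosomes with 3 or more genes. In both, untreated pools 2 and 3 lay near RUX pool 4.

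Chromosome 8 (5 genes) summed to 117, 78.4 and 78.3 CPM untreated and 80.3, 89.1 and 87.6 CPM with RUX. Here all 3 RUX pools were above untreated pools 2 and 3, and the median log2 fold change was -0.07, with 1 of 5 positive. Chromosome 7 (5 genes, 4 tested) summed to 41.4, 32.1 and 32.7 CPM untreated and 31.8, 34.8 and 33 CPM with RUX, and all 4 had negative values with a median of -0.24. The pair on chromosome 5 summed to 43.0, 26.3 and 32.4 CPM untreated and 28.2, 29.5 and 26.6 CPM with RUX. Genes of a chromosome share their pools and are not replicates of each other.

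Within the block on chromosome 17, the groups overlapped in each of the 6 neighbours of Zfp946. The head-to-head pair, which has 1 CACGTG site between its starts, gave 36.8, 21.0 and 22.7 CPM untreated and 20.9, 24.9 and 24.2 CPM with RUX for Zfp942. For Zfp943 the values were 23.3, 10.9 and 13.3 CPM and 12.6, 15.7 and 13.2 CPM. In both genes untreated pool 1 was highest and the RUX pools overlapped untreated pools 2 and 3. Their log2 fold changes were -0.20 ± 0.21 and -0.19 ± 0.25, and 0.09 and 0.20 without untreated pool 1.

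Zfp944, whose upstream window is identical to that of Zfp942, was at 29.7, 20.9 and 24.1 CPM untreated and 22.9, 23.8 and 23.2 CPM with RUX (-0.10 ± 0.17, and 0.05 without untreated pool 1). Zfp945 was at 23.2, 15.3 and 13.3 CPM untreated and 16.3, 16.3 and 12.9 CPM with RUX, and Zfp948 at 4.07, 2.87 and 2.25 CPM untreated and 2.69, 2.93 and 3.51 CPM with RUX. Without untreated pool 1, 5 of the 7 block genes had positive log2 fold changes, and Zfp946 and Zfp947 remained negative at -0.56 and -0.52. Apart from Zfp946, whose difference led to the run, the groups overlapped with all pools in each gene with CACGTG upstream. Of all genes, 3.25% lay wholly below and 2.99% wholly above. Whether the hexamer goes with a difference was not tested.

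**Figure D5:**
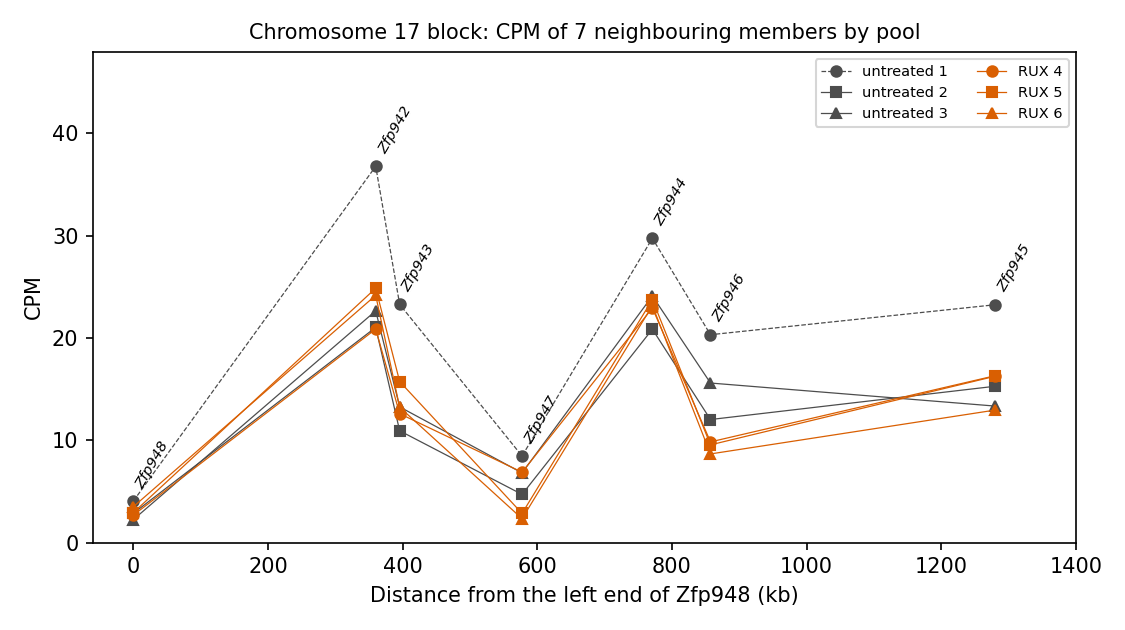
CPM of the 7 genes of the chromosome 17 block in each pool, plotted against distance in kb from the left end of Zfp948, with 1 symbol and line per pool and untreated pool 1 dashed. Untreated pool 1 lies above the other pools at each gene, and the 3 RUX pools lie lowest together at Zfp946 (8.66 to 9.84 CPM).

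The proteins through which KRAB domains act showed no called difference. All 27 listed cofactors were tested, 0 were called, and their median log2 fold change was 0.05, with 16 positive and 11 negative. Trim28, the KRAB corepressor, had 367 ± 48.4 CPM untreated and 390 ± 12.9 CPM with RUX (0.09 ± 0.15). It was lowest in untreated pool 1, at 317 CPM against 370 to 413 CPM elsewhere. The cofactors as a list did not share this: 7 of the 27 were lowest and 5 highest in that pool. Their median ratio of untreated pool 1 to the mean of the other 5 pools was 1.03, with 16 of 27 above 1. Setdb1, the H3K9 methyltransferase, had 58.1 ± 7.99 and 55.5 ± 7.02 CPM (-0.07 ± 0.16). The heterochromatin protein 1 genes Cbx1, Cbx3 and Cbx5 had log2 fold changes of -0.08, -0.09 and 0.15. The sign of each of these 5 genes turned when 1 pool was left out. The ends of the list were Mphosph8, a subunit of the HUSH silencing complex, at 0.32 ± 0.22, and Morc3, a chromatin ATPase, at -0.16 ± 0.16, both with overlapping groups.

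A list of 20 other named KRAB zinc finger genes, 18 of them tested, gave 0 called, 8 positive and 10 negative values and a median log2 fold change of -0.06. Zfp809, which recognises the primer binding site of murine leukaemia virus, had 12.3 ± 0.814 CPM untreated and 11.5 ± 1.20 CPM with RUX. The smallest unadjusted p values of the list belonged to Zfp90, with a log2 fold change of -0.37 ± 0.22, and Zfp354c, with 0.47 ± 0.31, and in both the groups overlapped. Of the 20 genes, tested or not, 8 were highest in untreated pool 1. The count in the run was 25 of 30 and covers tested genes only, so the 2 shares are not on the same footing.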

How the data were processed

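The authors deposited raw counts of read pairs per gene for the 6 pools, made with featureCounts 2.0.3 over exons of an mm10 annotation, per the file headers. Reads were aligned with STAR to mm10, per the submitters' processing notes. The SMART-Seq mRNA LP kit was used to build libraries, per the labels' protocols. The recorded command sets no strand option and none for reads mapping to several places, so antisense genes cannot be told apart and near-identical copies are uncertain. The deposited exon length of each gene was used for TPM. Molecular identifiers are not mentioned, so floors of 3 counts cover counting error only.

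Pools were grouped by the treatment in the labels, and columns were matched by library name. Genes kept by filterByExpr (13411) were tested with edgeR 4.0.16 in R 4.3.3 by the two-sided quasi-likelihood test with TMM scaling (factors 0.938 to 1.03), treatment as the only term and Benjamini-Hochberg adjustment over all tested genes at 0.05. CPM is counts over the TMM-scaled library total. The SE of each log2 fold change (RUX over untreated) is its size over the square root of F, and intervals are 95%. P-values set the difference between the groups against the spread between pools. Alternatives used DESeq2 1.42.0 size factors and test, limma 3.58.1 (voom), upper-quartile scaling, robust fitting, other low-count filters and leaving out each pool. The scripts were tested on simulated data.

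The genes and lists were chosen with earlier results of these data known. Genes named are Zfp946, the 10 with the highest TPM, in each direction the 5 lowest unadjusted p, those with non-overlapping groups, the highest of each chromosome with 3 or more, the corepressor genes Trim28, Setdb1, Cbx1, Cbx3 and Cbx5, and up to 2 more of each list. Others were named for their place in the block, their sequence or their pool values after these were seen. Of the listed symbols, 1 (Ly6g) was not found and is not analysed here. Upstream sequences are from RefSeq (GRCm38.p6). Reading frames, exons and 50-base words are from GENCODE vM21 transcripts, with words from overlapping loci not counted as shared.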

Additional observations from a re-analysis of the deposited data

How the results depend on the processing

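No paired analysis was possible because pool numbers are not shared between the groups. The count of called genes of the run was 0 in the 14 alternatives. At an unadjusted p under 0.05, leaving Zfp946 aside, it was 0 to 6, with 6 without untreated pool 2. That setting keeps untreated pool 1, the high pool. There 666 of all 13747 tested genes passed the same threshold, against 254 of 13411 with all pools. Over all genes, 14 were called without a low-count filter and 0 otherwise. The count of positive log2 fold changes in the run, 2 with all pools, was 4 without a low-count filter, 5 with limma-voom, 0 without untreated pool 3 and RUX pool 4 (chosen after seeing the data), and 2 to 15 when 1 pool was left out, with 15 without untreated pool 1. The count of negative values was 16 to 29 and the median -0.30 to -0.0070 when 1 pool was left out, 16 and -0.0070 without untreated pool 1; without untreated pool 3 and RUX pool 4 it was 31. Leaving out 1 pool reversed the log2 fold change of Trim28 (range -0.0073 to 0.19, lowest without untreated pool 1), Setdb1 (-0.18 to 0.037, positive without untreated pool 1 or RUX pool 4), Cbx1 (-0.22 to 0.029, highest without RUX pool 6), Cbx3 (-0.31 without untreated pool 3 and RUX pool 4, to 0.018 without RUX pool 5) and Cbx5 (-0.0073 to 0.27, lowest without untreated pool 3). The cause was not tested. With 3 pools a group, the median standard error of 0.22 (log2) limits what single genes can show.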
